A study of Arabidopsis thaliana with 18 samples.

Results

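Bisphenols are plastic monomers in which a pair of phenol rings is held together by a bridge. In 4 of the compounds studied the bridge is built of carbon: a methylene in bisphenol F (BPF, 1 carbon), a carbon with a methyl group in bisphenol E (BPE, 2 carbons), a carbon with a pair of methyl groups in bisphenol A (BPA, 3 carbons) and a carbon that bears 1 methyl and 1 ethyl group in bisphenol B (BPB, 4 carbons). The 12 RNA-seq libraries of these compounds, 3 for each, were chosen by compound name alone and ordered by bridge carbons; they are 12 of the 18 libraries of the series. The other libraries are 3 of bisphenol S (BPS), whose bridge is a sulfonyl group, and 3 of a control that had DMSO below 0.01% by volume and no bisphenol. BPS and control entered the fits only to help estimate the spread, and control levels are given for reference.

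All roots came from wild-type (WT) Arabidopsis thaliana grown for 14 days on agar that held the compound from sowing on. Doses of 1, 3 and 10 mg/L appear in the protocol, and the labels tie no dose to a library. The 4 compounds are therefore not known to be matched in dose, and each bridge size is a single compound. Bridge size, dose and any other property of a compound cannot be told apart in any value below. The labels do not say that replicates came from separate plates or pools of seedlings, so p-values here rest on the spread between libraries, which may be technical.

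Expression was deposited as FPKM, a fragment count scaled by the authors for gene length and for library size. The slope is the change in log2(FPKM + 1) per added bridge carbon, from a limma fit of group means. A slope of 1 is a 2-fold rise per carbon for a well expressed gene, and the added 1 understates the change of genes at low FPKM. A gene was said to rise or fall with bridge size when the slope had a Benjamini-Hochberg adjusted p below 0.05 over the 19484 genes whose FPKM averaged 1 or more across the 18 libraries. The low values of the tables fit a depth of about 15862000 to 22152000 fragments per library.

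Of the 10 root marker genes set for the check of tissue, 9 passed the filter, and none of the 10 was at 0 in any library. Summed FPKM of 27 photosynthesis genes, which mark shoot tissue or greening, was 357.0 to 899.2 in BPF roots, 677.6 to 828.8 in BPE roots, 691.1 to 1228 in BPA roots and 1548 to 1808 in BPB roots, against 169.1 to 391.1 in control roots. Summed FPKM of the 10 root markers was 279.9 to 441.1 in BPF roots, 302.0 to 344.4 in BPE roots, 380.1 to 432.8 in BPA roots and 482.1 to 629.3 in BPB roots, against 278.1 to 336.8 in control roots. Both sums were thus higher in every BPB library than in any library of the other 3 compounds or the control. The water channel TIP2;2 alone held 319.4, 355.3 and 387.7 FPKM of the root marker sum in BPB roots. It had 85.5 to 203.6 in BPF, 113.5 to 186.6 in BPE, 227.2 to 266 in BPA and 84.5 to 137.7 in control roots. Of the 9 tested root markers 3 rose and 1 fell, against 18.6% and 7.61% of all tested genes, and 5 were not called. Fewer cells of a type and less RNA per cell cannot be told apart in such bulk samples. BPB replicate 3 and BPA replicate 3 lay away from their partners in many genes, so the main counts below and those of several lists are also given without this pair of libraries. In a principal component analysis of the 12 libraries, component 1 held 38.2% of the variance and placed BPB at 42.7 to 63.5, against -53.5 to -40.6 for BPE, with BPF (-17.1 to 9.6) and BPA (-33.6 to 26.6) between them. The first component thus did not follow bridge size, since BPE and not BPF lay at the end away from BPB.

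Of the 9 genes whose slope was called whichever compound was left out, 6 are on the list of copper and superoxide dismutase genes. Of the 19484 tested genes, 14 are on this list. The list was chosen with earlier results of these data known, so the overlap is a description. Arabidopsis meets low copper through the transcription factor SPL7, which binds DNA at GTAC and raises copper uptake genes, the iron superoxide dismutase FSD1 and the precursors of the microRNAs miR398 and miR408. miR398 in turn lowers the mRNAs of the copper/zinc superoxide dismutases CSD1 and CSD2 and of their copper chaperone CCS, so that iron takes the place of copper in this enzyme and copper is spared for other proteins. This is background from plant biology in general and not a result of these libraries.

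The mature sequences of miR398 and miR408 are shown because their precursors fell with bridge size while CSD1, CSD2 and CCS, known miR398 targets, rose. They were read from the RefSeq genome TAIR10.1 at the annotated positions, 5′ to 3′, with the seed (bases 2 to 8) in capitals. miR398c-3p lies at chr5:4694778-4694798 (+ strand) and miR408-3p at chr2:19319933-19319953 (+ strand), each inside its precursor, and the seeds differ. miR398b-3p has the same 21 letters as miR398c-3p.
miR398c-3p: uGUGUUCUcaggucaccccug
miR408-3p: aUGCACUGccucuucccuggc
The stretches of the CSD1, CSD2 and CCS transcripts with the most bases able to pair with miR398c-3p are given next, with bases that form Watson-Crick pairs in capitals and no gaps allowed. CSD1 (chr1:2827177-2827685, + strand, split by an intron of the 5′ untranslated region) paired at 17 of 21 bases, CCS (chr1:4267521-4267541, - strand, coding sequence) at 15 and CSD2 (chr2:12015572-12015592, + strand, coding sequence) at 13.
CSD1: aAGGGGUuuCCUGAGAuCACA
CCS: auuGGGaGACCUGgGAACACu
CSD2: ugcGGGUGACCUGgGAAacau

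Promoter windows ran from 250 bases before to 50 bases after each annotated gene start. They were searched for GTAC, which reads the same on both strands and was counted wherever it began. The windows of 4 genes that fell and hold matches are shown as examples, with GTAC in capitals. They are FSD1 (chr4:12886962-12887261, - strand), CCH, which codes for a copper chaperone (chr3:20864678-20864977, - strand), MIR408 (chr2:19319564-19319863, + strand) and MIR398c (chr5:4694444-4694743, + strand). Other genes that fell hold matches but are not shown, or hold none, as given below.
FSD1: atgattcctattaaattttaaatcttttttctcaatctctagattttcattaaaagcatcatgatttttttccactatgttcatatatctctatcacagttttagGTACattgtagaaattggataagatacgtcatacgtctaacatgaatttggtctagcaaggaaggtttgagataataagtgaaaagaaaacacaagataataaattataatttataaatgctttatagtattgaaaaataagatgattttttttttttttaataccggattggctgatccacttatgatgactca
CCH: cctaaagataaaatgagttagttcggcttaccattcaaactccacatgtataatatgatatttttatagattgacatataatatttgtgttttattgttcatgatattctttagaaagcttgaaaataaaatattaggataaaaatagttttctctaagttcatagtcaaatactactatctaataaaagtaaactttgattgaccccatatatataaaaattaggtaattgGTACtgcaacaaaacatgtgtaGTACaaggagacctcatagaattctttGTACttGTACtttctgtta
MIR408: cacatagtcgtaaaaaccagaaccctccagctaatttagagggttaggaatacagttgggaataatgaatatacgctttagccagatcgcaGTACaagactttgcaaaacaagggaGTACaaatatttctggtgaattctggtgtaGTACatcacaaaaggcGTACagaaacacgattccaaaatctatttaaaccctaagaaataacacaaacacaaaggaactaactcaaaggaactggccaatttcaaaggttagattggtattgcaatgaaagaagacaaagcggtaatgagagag
MIR398c: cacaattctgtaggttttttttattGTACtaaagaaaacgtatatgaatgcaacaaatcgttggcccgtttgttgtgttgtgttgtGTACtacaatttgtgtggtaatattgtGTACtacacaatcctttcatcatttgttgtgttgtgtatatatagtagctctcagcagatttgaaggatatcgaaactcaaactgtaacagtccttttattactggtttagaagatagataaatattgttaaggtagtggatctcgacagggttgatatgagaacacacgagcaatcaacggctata
GTAC stood once in the FSD1 window, 4 times in those of CCH and MIR408 and 3 times in that of MIR398c. Among the 19210 tested genes with such a window, 39.2% held at least 1 GTAC, 1.9% at least 3 and 0.39% at least 4. Of the other genes discussed with them, YSL2 had 3 matches, CSD1 had 2, COPT2, CCS and AT2G25625 had 1, and FRO4, AT1G71200 and CSD2 had none in this window.

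Across all genes, 5107 of 19484 changed along the row of compounds (26.2%), and 2223 when a straight line was fitted to the 12 libraries alone. With more bridge carbons 3625 genes rose (18.6%) and 1482 fell (7.61%). The median slope of all genes was 0.049, and BPB libraries had the highest medians of log2(FPKM + 1) among the 4 compounds (3.68 to 3.78, against 3.56 to 3.68 in the BPF, BPE and BPA libraries). After each library was shifted to the same median, 2102 genes rose and 2169 fell, and after quantile normalization 2549 rose and 1738 fell, so the excess of risers was absent under the median shift and smaller under the other scaling. Slopes above 0.5 in size were reached by 153 risers and 337 fallers. The 4 group means ran in strict order in 2474 genes, and 1582 of these were called, 1346 of them rising and 236 falling. The count of 5107 rested in part on single libraries: it was 3115 without BPF replicate 1, 2721 without BPF replicate 2 and 2366 without BPB replicate 2. Without BPA replicate 3 and BPB replicate 3 it was 5636, 3410 rising and 2226 falling.

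The call depended on which compounds took part. With BPF left out of the slope 6107 genes were called, with BPE left out 4771 and with BPA left out 5851. With BPB left out, so that the slope ran over BPF, BPE and BPA alone, 13 genes were called (0.0667%), although 2649 had an unadjusted p below 0.05. With equally spaced carbons the BPE mean has no weight in this slope, which is set by BPA minus BPF alone. It is thus the same test as that of the BPA and BPF pair below. There, p-values adjusted over genes and pairs together called 455 genes. In the same way the slope with BPF left out is set by BPB minus BPE alone. Of the 5107 genes, 4388 had the same sign of slope without BPB. The count of 13 moved with single libraries: it was 5 without BPF replicate 2 or BPA replicate 1, 7 without BPA replicate 2, 8 without BPF replicate 1, 21 without BPF replicate 3 or BPS replicate 1, 24 without BPB replicate 3 and 42 without BPA replicate 3. It was 1251 without BPA replicate 3 and BPB replicate 3 together and was 0 when the 9 libraries of BPF, BPE and BPA were fitted alone. The plot of called genes shows these counts beside those of the pairs.

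**Figure D1:**
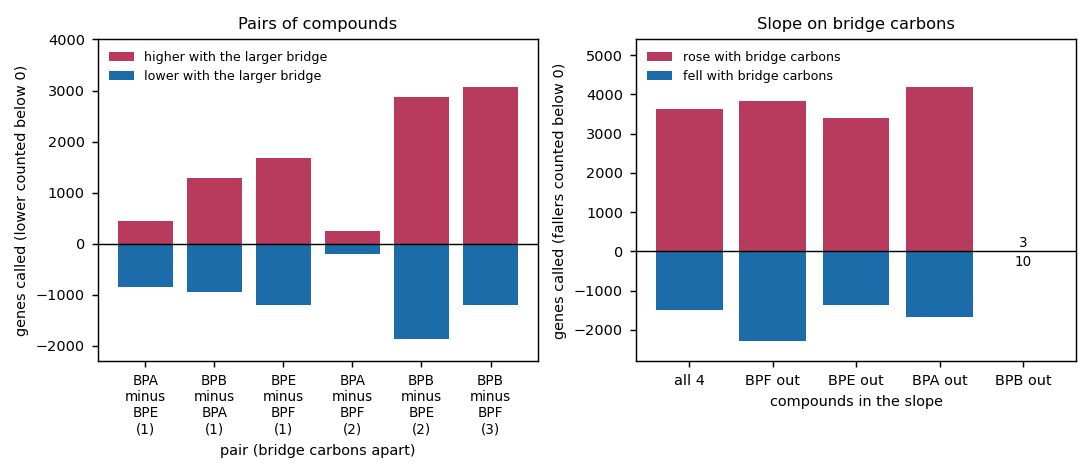
Left, genes called for each pair of compounds, with those higher with the larger bridge above 0 and those lower below 0, ordered by bridge carbons apart; the BPA and BPF pair, 2 carbons apart, has 455 called genes, the fewest of the 6 with all libraries but more than BPA and BPE without BPA replicate 3. Right, genes whose slope on bridge carbons was called with all 4 compounds and with each compound left out. Without BPB, where the slope is set by BPA minus BPF alone, 3 rose and 10 fell.

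In all, 9 genes were called with the same sign in the fit of 4 compounds and in each of the 4 fits that leave out a compound (0.0462%). These fits share most of their libraries and are not independent. The fit without BPB rests on BPA minus BPF alone, and the fit without BPF on BPB minus BPE alone. FSD1, FRO4, COPT2, CCH, YSL2, AT1G71200 and AT2G25625 fell with bridge size, and CSD2 and CCS rose. The number meeting this rule was 4 without BPF replicate 2, BPE replicate 2 or BPA replicate 1, 5 without BPE replicate 3 or BPB replicate 2, 14 without BPS replicate 1, 16 without BPA replicate 3 and 18 without BPF replicate 3. With the 12 libraries of the 4 compounds alone no gene met it, and without BPA replicate 3 and BPB replicate 3 together 176 did, all 9 among them. All 9 genes kept their slope call and direction when any of the 18 libraries was left out.

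FSD1 (AT4G25100), the iron superoxide dismutase, had FPKM of 168.3, 162.1 and 108.2 in BPF roots, 27.7, 93.9 and 103.5 in BPE roots, 11.5, 10.7 and 15.9 in BPA roots and 10.1, 8.2 and 21 in BPB roots. Control roots had 4.19, 6.33 and 7.8 FPKM. The BPF libraries stood above every BPE library, the BPE libraries above every BPA and BPB library, and the last pair of compounds overlapped. The slope was -1.27 ± 0.14 per carbon (SE; adjusted p = 0.000136), and -1.71 over BPF, BPE and BPA alone (adjusted p = 0.00523). BPB minus BPA was -0.04 in log2(FPKM + 1), with a 95% interval of -0.96 to 0.87, and was not called.

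Copper uptake genes followed the same order. FRO4 (AT5G23980), a ferric and cupric reductase of the root surface, had FPKM of 8.77, 11.9 and 5.7 in BPF roots, 0.157, 2.03 and 4.27 in BPE roots, 0.157, 0.125 and 0.0971 in BPA roots and 0.0278, 0 and 0.22 in BPB roots. COPT2 (AT3G46900), a high-affinity copper importer, had 8.56, 6.48 and 3.48 in BPF roots, 0.319, 3 and 3.96 in BPE roots, 0.371, 0.178 and 0.345 in BPA roots and 0.198, 0.0855 and 0.434 in BPB roots. In both genes BPE replicate 1 lay near the BPA and BPB libraries while BPE replicates 2 and 3 lay well above them, and control roots had 0.0237 to 0.0698 FPKM of FRO4 and 0.0826 to 0.168 of COPT2. The slopes were -1.06 ± 0.12 for FRO4 (adjusted p = 0.000172) and -0.86 ± 0.12 for COPT2 (adjusted p = 0.000458). FRO4 lies next to the similar gene FRO5, so reads could be shared between the 2 genes, and FRO5 did not pass the filter. BPE minus BPF was -1.84 ± 0.38 for FRO4 (SE; adjusted p = 0.007), a difference of 1 carbon at the small end of the row.

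CCH (AT3G56240), the chaperone that carries copper inside cells, was far more abundant and had FPKM of 361.3, 384.2 and 360.6 in BPF roots, 137.2, 236.4 and 260.9 in BPE roots, 98.6, 91.5 and 135.0 in BPA roots and 95.8, 103.3 and 159.6 in BPB roots, against 90.4, 89.5 and 84.1 in control roots. Every BPF library was above every BPE library and every BPE library above every BPA library, while BPB replicate 3 reached into the BPE range. Its slope was -0.59 ± 0.07 (adjusted p = 0.000228), and BPB minus BPA was 0.12 (95% interval -0.36 to 0.61). YSL2 (AT5G24380), a transporter of metals bound to nicotianamine, had 25.7, 22.8 and 20.9 in BPF roots, 13.2, 21.6 and 19 in BPE roots, 10.6, 7.05 and 9.54 in BPA roots and 6.73, 7.08 and 11.1 in BPB roots, with a slope of -0.51 ± 0.07 (adjusted p = 0.000373). In YSL2 the step lay between BPE and BPA (-0.9 for BPA minus BPE, adjusted p = 0.0148), while BPE minus BPF was -0.37 (95% interval -0.83 to 0.08).

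The remaining fallers were low in level. AT1G71200, annotated as a basic helix-loop-helix DNA-binding protein, had FPKM of 6.14, 3.25 and 4.29 in BPF roots, 0.432, 2.41 and 3.25 in BPE roots, 0, 0 and 0.311 in BPA roots and 0.356, 0.385 and 0.0783 in BPB roots, and it was listed at 0 in all 3 control libraries. Its slope was -0.76 ± 0.10 (adjusted p = 0.000266). AT2G25625, which the reference calls a histone deacetylase-like protein, had 3.66, 5.06 and 3.48 in BPF roots, 1.83, 3.59 and 2.07 in BPE roots, 0.233, 0.892 and 0.901 in BPA roots and 0.661, 0.179 and 0.327 in BPB roots, with a slope of -0.67 ± 0.07 (adjusted p = 0.000136). In AT2G25625 the BPF and BPE groups overlapped, and so did the BPA and BPB groups, but no library of the smaller bridges reached down to one of the larger bridges.

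The copper/zinc enzymes ran the other way. CSD2 (AT2G28190), the copper/zinc superoxide dismutase of plastids, had FPKM of 62.2, 49.2 and 64.5 in BPF roots, 106.2, 79.8 and 79.6 in BPE roots, 107.8, 138.3 and 122.9 in BPA roots and 130.4, 138.7 and 144.1 in BPB roots, against 101.0, 102.0 and 102.9 in control roots. Its cytosolic counterpart CSD1 (AT1G08830) had 233.7, 204.1 and 248.3 in BPF roots, 445.0, 265.1 and 265.8 in BPE roots, 478.7, 481.8 and 440.9 in BPA roots and 459.6, 435.1 and 558.4 in BPB roots, against 605.9, 552.0 and 647.7 in control roots. BPF roots were lowest in both genes, below every library of the other compounds and of the control. The slopes were 0.42 ± 0.05 for CSD2 (adjusted p = 0.000175) and 0.38 ± 0.06 for CSD1 (adjusted p = 0.000884), and over BPF, BPE and BPA alone CSD1 missed the threshold (adjusted p = 0.0587). CCS (AT1G12520), which loads copper into both enzymes, had 20.5, 15 and 24.4 in BPF roots, 40.2, 29.8 and 27 in BPE roots, 44.8, 53 and 42 in BPA roots and 60.4, 67.1 and 55.7 in BPB roots, so that every library of a larger bridge exceeded every library of a smaller one. CCS had a slope of 0.53 ± 0.05 (adjusted p = 0.000123), and its control libraries (33.4, 38.4 and 31.4 FPKM) fell among those of BPE. BPB minus BPA was 0.39 for CCS (95% interval 0.02 to 0.76; adjusted p = 0.15).

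The microRNA precursors were seen at low FPKM. MIR408 (AT2G47015) had 5.61, 4.07 and 3.16 in BPF roots, 0.61, 0.95 and 1.66 in BPE roots, 0.379, 0.272 and 0.571 in BPA roots and 0.655, 0.784 and 0.753 in BPB roots, with control libraries at 0.6, 0.74 and 0.8. Its slope was -0.53 ± 0.06 (adjusted p = 0.000173), but most of the change lay between BPF and BPE (-1.35 for BPE minus BPF, adjusted p = 0.000795), the departure from a straight line was called (adjusted p = 0.00616), and with BPF left out the slope was -0.12 (adjusted p = 0.365). MIR398c (AT5G14565) had 6.06, 3.77 and 3.81 in BPF roots, 0.81, 2.23 and 3.73 in BPE roots, 1.67, 1.16 and 0.452 in BPA roots and 0.162, 1.23 and 1.08 in BPB roots, with a slope of -0.55 ± 0.12 (adjusted p = 0.00527; 0.269 over BPF, BPE and BPA). Control roots had 0.798, 1.12 and 0.244 FPKM of MIR398c, within the range of the BPA and BPB libraries. MIR398a and MIR398b were listed at 0 in all 18 libraries, and reads of MIR398b and MIR398c, whose mature letters are the same, could have been assigned to either. The mature microRNAs were not measured by these mRNA libraries.

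The list of copper and superoxide dismutase genes had 15 members, of which 14 were tested. Of these, 4 rose and 5 fell, against 18.6% and 7.61% of all tested genes, and 5 were not called. The median slope was 0.024 against 0.049 for all genes. Beside those described, ZIP2 (AT5G59520), a metal transporter of the ZIP family, fell (-0.51 ± 0.11; adjusted p = 0.00496), and FSD3, an iron superoxide dismutase of plastids, rose by 0.22 ± 0.06 (adjusted p = 0.0232). With BPF left out the limma slope of ZIP2 was -0.07 (adjusted p = 0.789). ZIP2 was also not called by a straight line fitted to the 12 libraries (adjusted p = 0.0847). FSD3 was not called after the median shift (adjusted p = 0.0584) or quantile normalization (0.0732), nor without BPF replicate 3 (0.0757) or BPB replicate 2 (0.104). SPL7 itself, at 11.6 to 12.9 FPKM in BPF roots, 12.8 to 15.1 in BPE roots, 11 to 12.7 in BPA roots and 14.3 to 16.5 in BPB roots, had a slope of 0.08 ± 0.04 that was not called (adjusted p = 0.219). The manganese enzyme MSD1 had a slope of -0.03 ± 0.05 (adjusted p = 0.678) and the peroxisomal CSD3 one of 0.09 ± 0.04 (adjusted p = 0.128). The plot of copper genes by library shows these patterns.

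**Figure D2:**
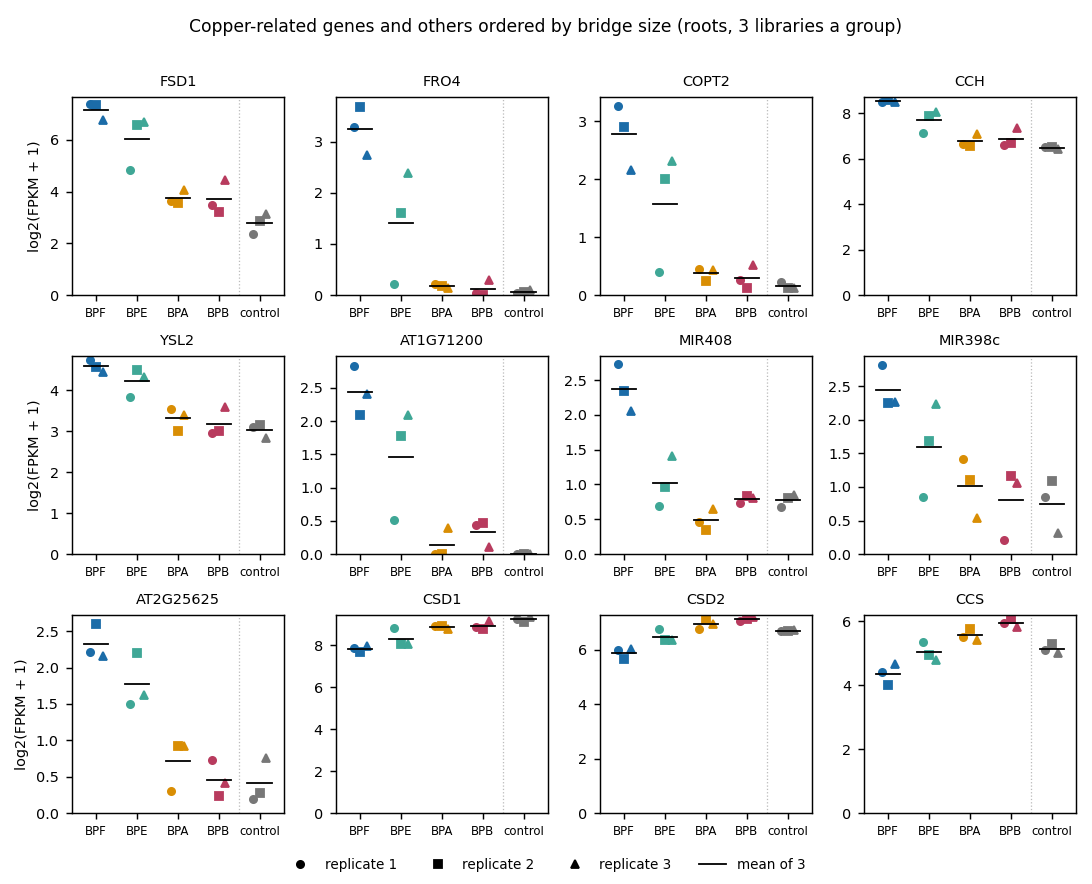
Log2(FPKM + 1) of 12 genes in the 3 libraries of BPF, BPE, BPA, BPB and control, with the mean of each group as a bar and the 3 replicates as circle, square and triangle; each panel has its own axis from 0. FSD1, FRO4, COPT2, CCH, YSL2, AT1G71200, MIR408, MIR398c and AT2G25625 are highest in BPF roots, and CSD1, CSD2 and CCS are lowest there.

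Of the 13 genes called over BPF, BPE and BPA, the 4 that are not in the set of 9 were MIR408, ZIP2, UMAMIT19 and AT5G13720, named here because so few were called. UMAMIT19 (AT1G21890), of an amino acid transporter family, had 2.34 to 4.19 FPKM in BPF roots and at most 1.16 in any library of the other 3 compounds. AT5G13720, a protein of unknown function, rose and had 1.04, 1.41 and 1.92 in BPF roots, 2.18, 2.26 and 2.56 in BPE roots, 4.03, 3.54 and 3.12 in BPA roots and 3.4, 3.4 and 3.56 in BPB roots.

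Counting libraries rather than means, 5 genes had all 12 libraries in strict order. CCS, CCA1, HAC4 and AT3G59120 rose, and APC1 fell. CCA1 (AT2G46830), a transcription factor of the morning loop of the circadian clock, had FPKM of 19.8, 21.6 and 34.9 in BPF roots, 40.1, 48.3 and 35.8 in BPE roots, 75.1, 82.8 and 52.3 in BPA roots and 113.0, 122.5 and 83 in BPB roots, against 36.8, 47.3 and 28.9 in control roots. Its slope was 0.69 ± 0.08 (adjusted p = 0.00019), and 0.72 over BPF, BPE and BPA (adjusted p = 0.0552). HAC4 (AT1G55970), a histone acetyltransferase, had FPKM of 1.45, 1.48 and 1.62 in BPF roots, 2.01, 2.18 and 2.07 in BPE roots, 2.49, 2.32 and 2.3 in BPA roots and 3.43, 4.72 and 2.82 in BPB roots, with a slope of 0.27 ± 0.04 (adjusted p = 0.000847). AT3G59120, a protein with cysteine- and histidine-rich domains, rose by 0.12 ± 0.04 (adjusted p = 0.0393). AT3G59120 was not called after the median shift (adjusted p = 0.21) or quantile normalization (0.137), with the replicate number as a block (0.0537), without BPA replicate 3 and BPB replicate 3 together (0.0523), nor without BPF replicate 1 (0.0884), BPF replicate 2 (0.114), BPE replicate 2 (0.0571), BPE replicate 3 (0.0583), BPA replicate 2 (0.0552), BPB replicate 1 (0.0525), BPB replicate 2 (0.142) or control replicate 1 (0.0502). APC1 (AT5G61810), a carrier of the inner mitochondrial membrane, had FPKM of 9.61, 9.85 and 9.65 in BPF roots, 8.34, 8.87 and 7.89 in BPE roots, 7.4, 7.08 and 6.5 in BPA roots and 3.1, 1.98 and 3.94 in BPB roots and a slope of -0.46 ± 0.05 (adjusted p = 0.000181). In APC1 the departure from a line was also called (adjusted p = 0.0445), and the drop at BPB was larger than the earlier steps.

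Among called genes with ordered means, the steepest slopes upward were those of AT1G73602 (0.99 ± 0.24; adjusted p = 0.00997) and AT2G05441 (0.95 ± 0.18; adjusted p = 0.00226), neither of which is given a product here. Other genes among the 10 steepest are described next. SKOR (AT3G02850), a potassium channel that releases K+ into the xylem, had FPKM of 0.501, 0.282 and 1.1 in BPF roots, 4.26, 1.17 and 1.23 in BPE roots, 3.8, 5.62 and 1.69 in BPA roots and 9.54, 12.5 and 4.4 in BPB roots, with control libraries at 0.185 to 0.711 and a slope of 0.82 ± 0.13 (adjusted p = 0.000884). NRT1.5 (AT1G32450), which moves nitrate to the xylem, had 104.5, 97.2 and 179.6 in BPF roots, 202.7, 210.2 and 111.7 in BPE roots, 214.7, 409.8 and 167.4 in BPA roots and 676.3, 494.2 and 602.9 in BPB roots, with a slope of 0.73 ± 0.12 (adjusted p = 0.00116). All BPB libraries of NRT1.5 exceeded all others, while BPF, BPE and BPA overlapped. NAS1 (AT5G04950), nicotianamine synthase, averaged 13.2 ± 5.58 FPKM in BPF roots, 14.7 ± 3.93 in BPE roots, 29 ± 6.59 in BPA roots and 63.4 ± 2.51 in BPB roots (SD, n = 3 each), with a slope of 0.77 ± 0.10 in limma (adjusted p = 0.000408). The glutaredoxin family gene AT1G64500 rose by 0.89 ± 0.13 per carbon and AZI1, a protein of systemic defence signalling, by 0.85 ± 0.17 (adjusted p = 0.000568 and 0.00328 in this order). PSBO2 (AT3G50820), a subunit of the complex that splits water at photosystem II, had 4.63, 3.06 and 11.3 in BPF roots, 10.9, 9.08 and 5.39 in BPE roots, 14.1, 22.1 and 12.7 in BPA roots and 38.4, 40.9 and 25 in BPB roots and rose by 0.81 ± 0.12 (adjusted p = 0.000739).

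All gene lists were chosen with earlier results of these data known, so their counts, here and below, are a description. Of the 27 photosynthesis genes, 25 were tested, 19 rose, against 18.6% of all tested genes, and none fell, with a median slope of 0.46. PSBR had 82.3 to 186.3 FPKM in BPF roots, 137.1 to 159.0 in BPE roots, 170.6 to 254.2 in BPA roots and 299.0 to 371.8 in BPB roots, against 34.9 to 69.1 in control roots. PRK, of the Calvin cycle, had 1.56 to 3.33 FPKM in BPF roots, 1.73 to 2.05 in BPE roots, 2.47 to 4.57 in BPA roots and 5.38 to 9.24 in BPB roots. The count was 19 without BPA replicate 3 and BPB replicate 3 and 14 to 22 when single libraries were left out. Over BPF, BPE and BPA alone no member was called, with a median slope of 0.334. The part of green or shoot tissue in the slopes of these genes and of those just described was not tested; the summed levels stand with the tissue check above.

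Genes of low oxygen, which plants use to ferment when respiration stops, fell with bridge size. All 16 members were tested, 10 fell, against 7.61% of all tested genes, and none rose, with slopes of -1.129 to -0.019 and a median of -0.502 against 0.049 for all genes. PDC1 (AT4G33070), pyruvate decarboxylase, had FPKM of 49.8, 206.7 and 12.6 in BPF roots, 18, 41.6 and 45 in BPE roots, 17.9, 10.5 and 7.8 in BPA roots and 3.95, 3.11 and 6.58 in BPB roots, against 167.6, 84.8 and 178.4 in control roots. Its slope was -1.13 ± 0.22 (adjusted p = 0.0029). LBD41 (AT3G02550), a transcription factor of this response, had 84.1, 249.3 and 36.8 in BPF roots, 39.4, 68.5 and 63.4 in BPE roots, 36.3, 20.6 and 22.5 in BPA roots and 11.1, 7 and 18.6 in BPB roots, against 174.6, 124.5 and 155.7 in control roots, with a slope of -0.98 ± 0.16 (adjusted p = 0.00116). In both genes BPF replicate 2 was well above the other BPF libraries, and the BPB libraries were the lowest of the row. ADH1, alcohol dehydrogenase, fell with a slope of -0.86 ± 0.20 (adjusted p = 0.00672), HRA1 with one of -0.92 ± 0.19 (adjusted p = 0.00459) and the plant cysteine oxidase PCO1 with one of -0.66 ± 0.14 (adjusted p = 0.00451). Between 9 and 11 members fell when any 1 library was left out, so the count did not turn on BPF replicate 2. No member was called over BPF, BPE and BPA, although the median slope there was -0.55. Root hair genes fell in 6 of 19 (7.61% of all tested genes), a count that was 15 without BPB replicate 3 or without BPA replicate 3 and BPB replicate 3 together, 1 without BPF replicate 1 or BPB replicate 2 and 2 without BPF replicate 2 or BPB replicate 1.

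Further fallers with ordered means differed in where along the row the change lay. AT4G22610, a lipid-transfer type protein, had 184.0, 153.5 and 133.5 in BPF roots, 127.9, 136.6 and 211.3 in BPE roots, 207.6, 167.6 and 86.4 in BPA roots and 18.7, 7.57 and 5.23 in BPB roots and a slope of -1.19 ± 0.15 (adjusted p = 3e-04), but -0.05 over BPF, BPE and BPA. BGLU24, a beta-glucosidase, had 18, 20.8 and 13.3 in BPF roots, 11, 11.6 and 13.4 in BPE roots, 9.4, 5.82 and 11.7 in BPA roots and 2.12, 0.237 and 0.482 in BPB roots, with a slope of -1.04 ± 0.14 (adjusted p = 0.000335). SQP2, annotated as a squalene monooxygenase, fell with a slope of -0.96 ± 0.13 per carbon (adjusted p = 0.000329). NRT2.1, the high-affinity nitrate transporter, had 25.3, 81 and 4.46 in BPF roots, 4.24, 2.77 and 3.29 in BPE roots, 1.93, 1.69 and 4.44 in BPA roots and 1.65, 0.915 and 3.69 in BPB roots, against 83.1, 28.8 and 105.8 in control roots. BPF replicate 2 was far above its partners, and the slope of -0.93 ± 0.26 (adjusted p = 0.0175) was not called without BPF replicate 1 (adjusted p = 0.0513), BPF replicate 2 (0.0788) or BPB replicate 2 (0.0698).

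Genes of abscisic acid and dehydration fell with bridge size but did not step down evenly. Of 21 members 16 were tested, 9 fell and 1 rose, against 7.61% and 18.6% of all tested genes, with a median slope of -0.474 that became -0.021 when BPB was left out. In the neighbouring pairs, 5 members were higher in BPE than in BPF roots, 8 lower in BPA than in BPE roots and 6 lower in BPB than in BPA roots; the shares of all tested genes were 8.59%, 4.39% and 4.82% in the same order. RD29A (AT5G52310), a classic marker of drought and cold, had FPKM of 415.7, 209.0 and 97.7 in BPF roots, 641.3, 830.0 and 480.2 in BPE roots, 256.5, 158.8 and 51.4 in BPA roots and 9.22, 3.87 and 5.48 in BPB roots, against 1004.1, 768.6 and 662.2 in control roots. BPE roots had the highest levels of RD29A among the compounds and BPB roots the lowest, without overlap. BPB minus BPA was -4.24 ± 0.55 (SE; adjusted p = 0.000528), and BPA minus BPF was -0.67 (95% interval -1.83 to 0.50). KIN1 (AT5G15960), a small cold- and ABA-induced protein, had 147.0, 113.3 and 68.1 in BPF roots, 133.6, 209.4 and 166.2 in BPE roots, 77.4, 50 and 45.8 in BPA roots and 4.69, 1.48 and 3.62 in BPB roots, with a slope of -1.57 ± 0.11 (adjusted p = 4.22e-06). KIN1 and its neighbour KIN2 are near-identical copies, so fragments could have been split between them; KIN2 fell with a slope of -1.09 ± 0.09 (adjusted p = 4.08e-05). Without BPA replicate 3 and BPB replicate 3, 8 members fell and 1 rose.

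Jasmonate genes act in wound and insect defence. Of 22 tested members 11 fell, against 7.61% of all tested genes, and none rose, with a median slope of -0.411 and -0.069 without BPB, and 8 were lower in BPB than in BPA roots, against 4.82% of all tested genes. Summed FPKM of the list was 3208.5 to 4975.0 in BPF roots, 1932.9 to 3039.5 in BPE roots, 3528.2 to 4097.1 in BPA roots and 3039.7, 1726.9 and 487.3 in BPB replicates 1, 2 and 3. The sum in BPB replicate 1 was thus no lower than in the BPE libraries. JOX4 (AT2G38240), an oxygenase that inactivates jasmonate, had FPKM of 202.6, 136.2 and 43.2 in BPF roots, 198.1, 236.7 and 303.5 in BPE roots, 183.5, 84 and 26.5 in BPA roots and 1.32, 0.447 and 0.0826 in BPB roots, against 462.7, 347.1 and 336.8 in control roots. ABR1 (AT5G64750), an AP2-type transcription factor, had 295.6, 207.2 and 93.2 in BPF roots, 185.4, 306.7 and 332.0 in BPE roots, 269.8, 179.6 and 42.9 in BPA roots and 5.52, 2.85 and 1.4 in BPB roots, against 476.6, 392.2 and 411.3 in control roots. In both genes every BPB library was below every library of the smaller bridges, and replicate 3 was the lowest of the BPF, BPA and BPB libraries. BPB minus BPA was -5.62 ± 0.86 for JOX4 and -5.04 ± 0.72 for ABR1 (SE; adjusted p = 0.0014 and 0.000896 in this order). The allene oxide cyclase gene AOC2, of jasmonate synthesis, fell with a slope of -1.41 ± 0.18 (adjusted p = 0.000266). The count of 11 became 7 without BPF replicate 1, BPF replicate 2, BPF replicate 3, BPE replicate 3 or BPB replicate 2, and 9 without BPA replicate 3 and BPB replicate 3.

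Among 20 genes of touch and early stress 8 rose, against 18.6% of all tested genes, and none fell (5 rose after the median shift), with a median slope of 0.446 and 0.006 when BPB was left out, and 4 were higher in BPB than in BPA roots, against 6.56% of all tested genes. ERF104 (AT5G61600), an ethylene response factor, had FPKM of 17.5, 22.9 and 38.6 in BPF roots, 43.8, 40.4 and 35 in BPE roots, 30.4, 37.2 and 34.2 in BPA roots and 201.9, 463.3 and 245.6 in BPB roots. CBF2, a transcription factor of cold response, had 2.36, 5.09 and 7.84 in BPF roots, 6.55, 5.08 and 2.1 in BPE roots, 3.81, 8.26 and 7.08 in BPA roots and 39, 87.3 and 19.3 in BPB roots. DLAH (AT1G30370), a lipase-like hydrolase, had 1.6, 5.38 and 3.53 in BPF roots, 4.31, 3.08 and 2.46 in BPE roots, 2.64, 2.95 and 4.1 in BPA roots and 36.1, 64.9 and 27.8 in BPB roots, a BPB minus BPA difference of 3.3 ± 0.47 (SE; adjusted p = 0.000908) and an interval of -1.02 to 0.99 for BPA minus BPF. AT5G51190, annotated as an integrase-type DNA-binding protein, had a BPB minus BPA difference of 3.53 ± 0.54 (adjusted p = 0.00148). The 20 genes summed to 1074 to 3168 FPKM in BPF roots, 858.2 to 1039 in BPE and 1273 to 2388 in BPA roots. In BPB replicates 1, 2 and 3 the sums were 6373, 6779 and 1220. BPB replicate 3 was thus below every BPA library but above every BPE library. The count of risers was 13 without BPA replicate 3 and BPB replicate 3 together, 14 without BPB replicate 3, 4 without BPF replicate 1 or BPB replicate 2, and 5 without BPE replicate 2, BPE replicate 3 or BPB replicate 1.

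**Figure D3:**
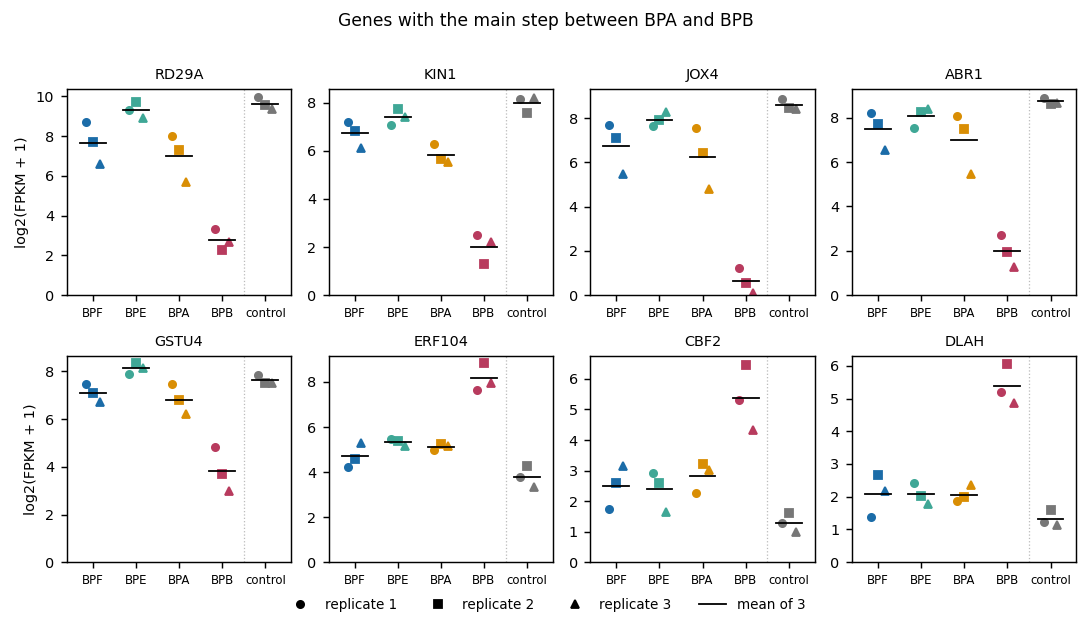
Log2(FPKM + 1) of 8 genes in the 3 libraries of BPF, BPE, BPA, BPB and control, with group means as bars and replicates as symbols; each panel has its own axis from 0. RD29A, KIN1, JOX4, ABR1 and GSTU4 are lowest in BPB roots, and ERF104, CBF2 and DLAH are highest there, while BPF and BPA overlap in each gene.

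Detoxification genes induced by foreign chemicals fell with bridge size: 9 of 18 fell, against 7.61% of all tested genes, and none rose, with a median slope of -0.252 and 9 fallers after the median shift. The median became -0.041 when BPB was left out. BPE roots had 4 members higher and 1 lower than BPF roots, against 8.59% and 6.16% of all tested genes. BPA roots had 5 lower than BPE roots, against 4.39%, and BPB roots 6 lower than BPA roots, against 4.82%. Tau and phi glutathione S-transferases, which couple glutathione to foreign molecules, had 14 fallers and 2 risers among 37 tested genes, against the same 7.61% and 18.6% of all tested genes. Their median slope was -0.156, and -0.092 without BPB. GSTU4 had FPKM of 176.2, 136.9 and 103.3 in BPF roots, 237.1, 328.0 and 278.4 in BPE roots, 175.9, 109.4 and 72.2 in BPA roots and 27.5, 11.8 and 6.95 in BPB roots, and its slope of -1.11 ± 0.14 (adjusted p = 0.000278) became -0.14 without BPB. GSTU25 averaged 288.5 ± 63.1 FPKM in BPF roots, 306.9 ± 57.3 in BPE roots, 174.2 ± 32.4 in BPA roots and 94.4 ± 11.8 in BPB roots (SD, n = 3 each), against 296.3 ± 57.3 in control roots, and fell with a slope of -0.56 ± 0.07 (adjusted p = 0.000181). Genes of this cluster are close copies of each other, and the counting could have split fragments among them. Of 129 cytochrome P450 genes, 30 rose and 17 fell, against 18.6% and 7.61% of all tested genes; both shares were less far from these than those of the detoxification list. Without BPB replicate 2 these counts were 18 and 10, and without BPF replicate 1 the fallers were 11. CYP94B1, which oxidises jasmonate, had 163.3 to 281.6 FPKM in BPF roots, 82.1 to 141.4 in BPE roots, 151.4 to 154.0 in BPA roots and 6.7 to 14.7 in BPB roots.

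For the lists that follow, 18.6% of all tested genes rose and 7.61% fell. Genes of iron supply rose in 8 of 16 tested members and fell in 1, with a median slope of 0.257, and flavonoid genes rose in 6 of 9 with none falling and a median of 0.364. With any single library left out, 7 to 9 iron genes and 6 flavonoid genes rose. AHA2, the proton pump of the root surface, had 165.4 to 184.1 FPKM in BPF roots, 141.6 to 201.9 in BPE roots, 183.8 to 201.5 in BPA roots and 300.3 to 352.7 in BPB roots. Aquaporins, the water channels, rose in 9 of 29 tested members (6 after the median shift) and fell in 1, and without BPA replicate 3 and BPB replicate 3 together 6 rose and 5 fell; PIP2;1 averaged 288.1 ± 89.8 FPKM in BPF roots, 341.3 ± 58.6 in BPE roots, 466.0 ± 57.2 in BPA roots and 628.2 ± 66.5 in BPB roots (SD, n = 3 each). Heat shock genes fell in 8 of 12 (5 without BPF replicate 2), with HSP17.6A at 1.2 to 5.29 FPKM in BPF roots and 0 to 0.498 in BPB roots. Phenylpropanoid and lignin genes fell in 9 of 19 and rose in 1, with 4 fallers without BPB replicate 2. No slope was called among 18 genes of mitosis, 17 of ethylene or 9 type-A cytokinin response regulators by limma, and their medians were 0.059, 0.011 and -0.003. Without BPB the median was 0.081 for iron, 0.256 for flavonoid and -0.091 for aquaporin genes, against 0.257, 0.364 and 0.042 with it. For heat shock genes it was -0.263 against -0.295, and for phenylpropanoid and lignin genes -0.04 against -0.225. The median slopes of the lists of at least 7 tested genes, with and without BPB, are drawn in the plot of gene lists. The 2 lists chosen after the values had been seen are not drawn.

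**Figure D4:**
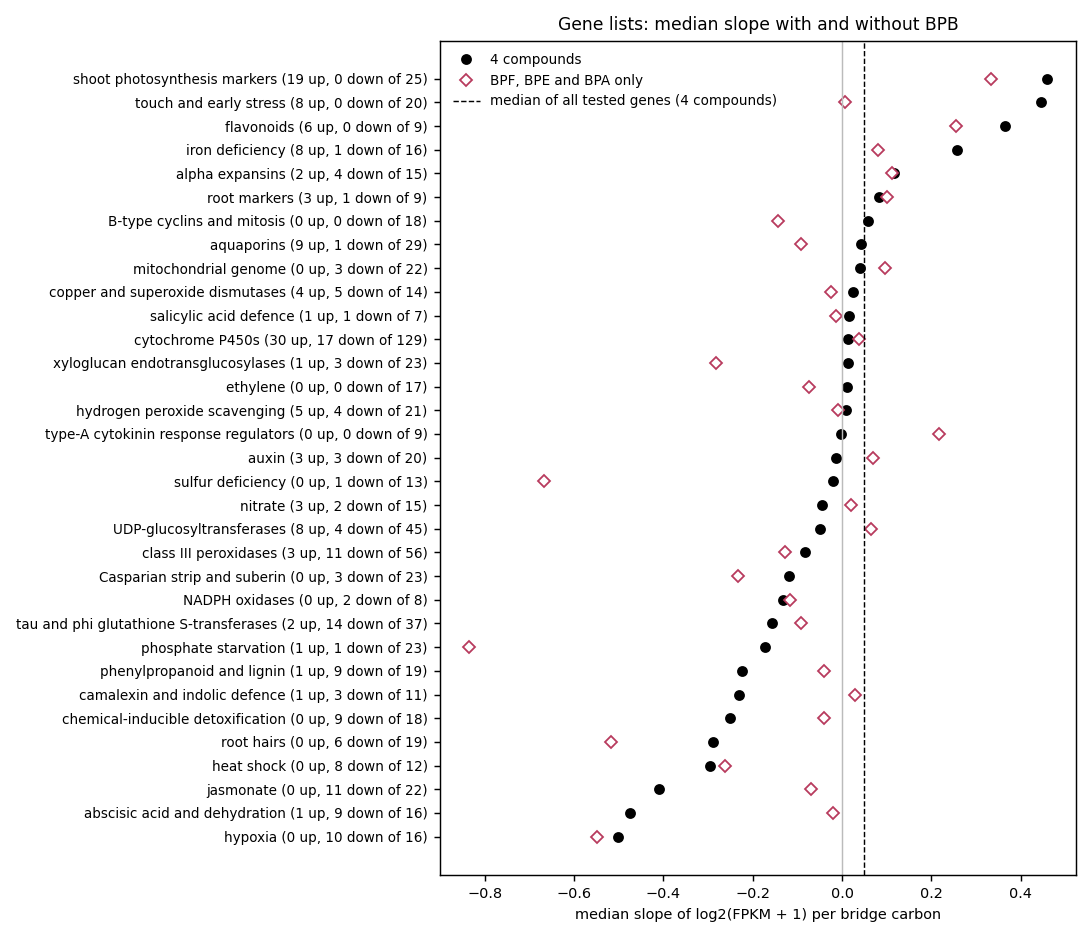
Median slope of log2(FPKM + 1) per bridge carbon in gene lists of at least 7 tested genes. Black circles are for all 4 compounds and open diamonds for BPF, BPE and BPA only. The 2 lists chosen after the values had been seen are left out. Labels give the genes called up and down, and the dashed line is the median of all tested genes, 0.049. The hypoxia median is -0.502 with BPB and -0.55 without it, while jasmonate moves to -0.069 and touch to 0.006.

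A straight line left much undescribed. The joint quadratic and cubic terms were called in 3288 genes (16.9%), 1221 of which also had a called slope and 2067 of which did not. BPE was the compound farthest from the median of the 4 group means in 1817 of the 3288 genes, higher in 1030 and lower in 787. BPB was farthest in 1041, BPF in 344 and BPA in 86. The count of 3288 was 1367 without BPF replicate 2, 1913 without BPF replicate 3, 1247 without BPE replicate 1, 612 without BPE replicate 2 and 2080 without BPA replicate 2. Without BPA replicate 3 and BPB replicate 3 it was 4588.

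NAC042 (AT2G43000), a NAC transcription factor, had FPKM of 4.56, 3.79 and 3.06 in BPF roots, 22.3, 20 and 16.3 in BPE roots, 3.88, 1.99 and 4.72 in BPA roots and 1.57, 0.986 and 2.25 in BPB roots, against 2.85, 3.51 and 2.5 in control roots. BPE minus BPF was 2.1 ± 0.28 and BPA minus BPE -2.22 ± 0.28 (SE; adjusted p = 0.000635 and 0.000487 in this order), so that the BPE libraries stood above all others. WRKY8 (AT5G46350), a stress transcription factor, had 1.61, 1.12 and 1.57 in BPF roots, 14.9, 7.68 and 6.4 in BPE roots, 2.12, 1.17 and 1.3 in BPA roots and 0.528, 0.374 and 0.127 in BPB roots, and the bHLH gene AT4G20970 had 0.648, 0.0799 and 0 in BPF roots, 11.7, 7.19 and 5.1 in BPE roots, 1.03, 0.789 and 0 in BPA roots and 0, 0 and 0 in BPB roots. Each of these 3 genes had an adjusted p of departure of 0.00112. AT1G71140, a MATE efflux carrier, had 1.16, 0.415 and 1.19 in BPF roots, 13.9, 9.75 and 6.38 in BPE roots, 2.79, 1.72 and 1.14 in BPA roots and 2.16, 1.27 and 0.394 in BPB roots and no called slope (adjusted p = 0.322). MYB121 averaged 0.426 ± 0.0787 FPKM in BPF roots, 8.65 ± 5.11 in BPE roots, 0.9 ± 0.812 in BPA roots and 0.665 ± 0.273 in BPB roots (SD, n = 3 each; adjusted p of departure = 0.00141 in limma).

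Other genes had their lowest levels in BPE roots. IRT1 (AT4G19690), the main iron importer of the root, had FPKM of 2.05, 1.54 and 0.921 in BPF roots, 0.144, 0 and 0 in BPE roots, 2.8, 3.56 and 2.18 in BPA roots and 5.86, 6 and 3.79 in BPB roots, against 3.04, 2.21 and 4.23 in control roots. FRO2 (AT1G01580), the reductase that feeds it, had 2.54, 3.08 and 1.1 in BPF roots, 0.147, 0.257 and 0.28 in BPE roots, 1.96, 2.88 and 2.73 in BPA roots and 3.91, 5.1 and 4.01 in BPB roots, and FIT, the transcription factor above both, had 13.9, 16.4 and 16.2 in BPF roots, 7.29, 5.04 and 10.7 in BPE roots, 12.2, 13 and 11.6 in BPA roots and 27.6, 27.4 and 35.4 in BPB roots. In FRO2 and FIT every BPE library was below every library of the other 3 compounds, and so it was in IRT1. BPE minus BPF was -1.23 ± 0.31 for IRT1 (SE; adjusted p = 0.0181) and -1.35 ± 0.25 for FRO2 (adjusted p = 0.00428). F3H (AT3G51240), of flavonoid synthesis, averaged 41.2 ± 9.53 FPKM in BPF roots, 22.3 ± 2.49 in BPE roots, 64.3 ± 20.5 in BPA roots and 68.3 ± 9.54 in BPB roots (SD, n = 3 each), and the departure was called in limma (adjusted p = 0.00526). FLS1, flavonol synthase, had 17.5 to 32.7 FPKM in BPF roots, 14.7 to 16.2 in BPE roots, 32.2 to 56.1 in BPA roots and 43.7 to 65 in BPB roots (adjusted p of departure = 0.0155).

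**Figure D5:**
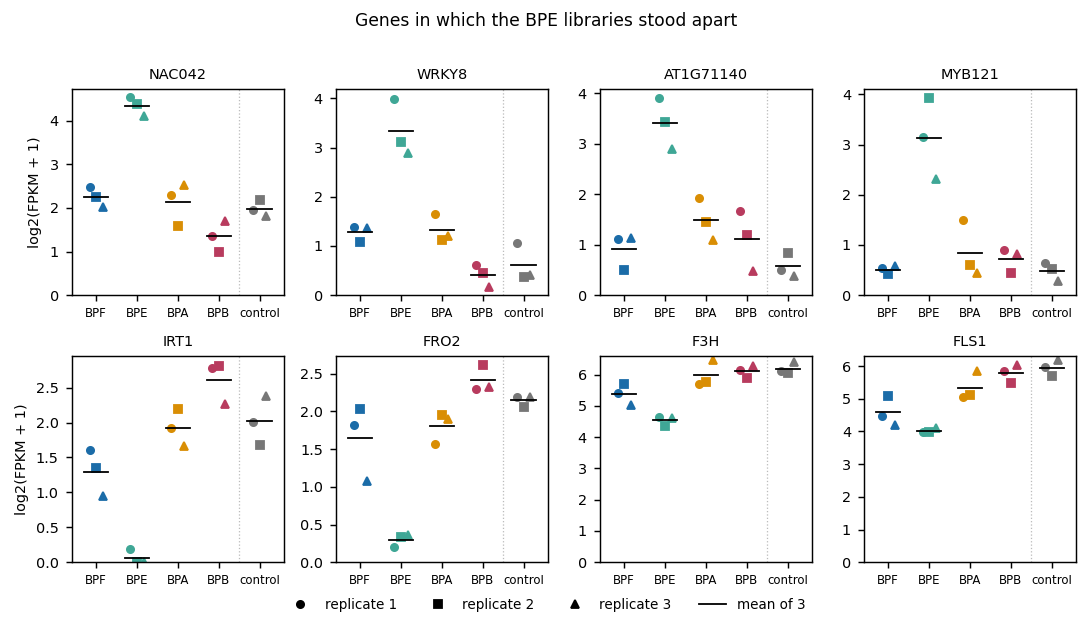
Log2(FPKM + 1) of 8 genes in the 3 libraries of BPF, BPE, BPA, BPB and control, with group means as bars and replicates as symbols; each panel has its own axis from 0. The BPE libraries lie above all libraries of the other 3 compounds in NAC042, WRKY8, AT1G71140 and MYB121, and below them in IRT1, FRO2, F3H and FLS1.

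The 6 pairs of compounds were compared directly, with p-values adjusted over all genes and pairs together. BPE and BPF, 1 carbon apart, differed in 2874 genes (14.8%), 1674 higher and 1200 lower in BPE roots. BPA and BPE differed in 1296 genes (6.65%), 441 higher and 855 lower in BPA roots. BPB and BPA differed in 2219 (11.4%), 1279 higher and 940 lower in BPB roots. BPA and BPF, 2 carbons apart, differed in 455 genes (2.34%), the fewest of the 6 pairs. That rank turned without BPA replicate 3, with 1361 genes for BPA and BPF and 739 for BPA and BPE, and without BPA replicate 3 and BPB replicate 3 together, with 2018 and 926. BPB and BPE differed in 4739 (24.3%) and BPB and BPF, 3 carbons apart, in 4260 (21.9%). With all libraries, the number of genes called did not grow evenly with the difference in bridge carbons. Pairs share libraries of a compound, so the counts are not independent of each other. The BPA and BPF count was 83 without BPF replicate 2, 94 without BPA replicate 2, 207 without BPE replicate 2, 233 without BPB replicate 2, 256 without BPA replicate 1, 266 without BPF replicate 1, 299 without control replicate 1 and 766 without BPB replicate 3. The BPE and BPF count was 880 without BPF replicate 2, 1309 without BPE replicate 1 and 1046 without BPE replicate 2. The BPA and BPE count was 404 to 795 without BPE replicate 1 (720), BPE replicate 2 (404), BPA replicate 2 (692), BPA replicate 3 (739) or BPB replicate 2 (795). The BPB and BPA count was 1200 without BPA replicate 1, 1267 without BPA replicate 2 and 912 without BPB replicate 2. The BPB and BPE count was 2479 without BPE replicate 2 and 2631 without BPB replicate 2, and the BPB and BPF count 2821 without BPF replicate 1, 2015 without BPF replicate 2 and 1748 without BPB replicate 2.

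At the step from 1 to 2 carbons the largest rises were those of AT1G26390, a berberine bridge enzyme-like oxidase, and AT5G43570, a protease inhibitor. AT1G26390 had 8.22 to 30.9 FPKM in BPE roots and 0.421 to 0.766 in BPF roots, a difference of 3.5 ± 0.63 (SE; adjusted p = 0.00366). AT5G43570 had 37.4 to 80.4 FPKM in BPE roots and 1.8 to 5.63 in BPF roots (3.48 ± 0.69; adjusted p = 0.00591). The largest falls were those of the phosphate starvation genes IPS1, with 2.53, 3.23 and 58.9 FPKM in BPE roots and 316.4, 641.5 and 300.2 in BPF roots, and PS2, with 3.37, 4.31 and 15.9 in BPE roots and 168.2, 517.8 and 289.9 in BPF roots. Of the 23 phosphate starvation genes tested, 15 were lower in BPE than in BPF roots, against 6.16% of all tested genes, and none was higher. IPS1 missed the threshold without BPF replicate 2 (adjusted p = 0.066), BPE replicate 1 (0.0696) or BPE replicate 2 (0.0741) and with the 12 libraries alone (0.0541). The slope was called downward in 1 phosphate gene, against 7.61% of all tested genes. Without BPA replicate 3 and BPB replicate 3 together it was called downward in 17, against 2226 of all 19484 tested genes. Of 18 mitosis genes, 12 were lower in BPE than in BPF roots, against the same 6.16%, although none had a called slope.

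At the step from 2 to 3 carbons, CIB1, a basic helix-loop-helix factor that binds a blue light receptor, had 16.9, 3.15 and 1.09 FPKM in BPA roots and 39.4, 64.5 and 48.5 in BPE roots (-3.24 ± 0.83; adjusted p = 0.0202), which missed the threshold without BPE replicate 2 (adjusted p = 0.0652), BPA replicate 2 (0.0564) or BPA replicate 3 (0.0591), without BPA replicate 3 and BPB replicate 3 together (0.0659) and with the 12 libraries alone (0.052). AT1G26390 was also lower in BPA roots, at 0.435 to 2.83 FPKM (-2.89 ± 0.63 for BPA minus BPE; adjusted p = 0.00982). AT5G38700, named after a cotton fibre protein, was higher in BPA roots (12.9 to 65.7 FPKM) than in BPE roots (2.33 to 4.74 FPKM), by 2.92 ± 0.78 (adjusted p = 0.0247). It missed the threshold without BPE replicate 1 (adjusted p = 0.0671), BPE replicate 2 (0.0681), BPA replicate 2 (0.0586) or BPA replicate 3 (0.0688).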

How the data were processed

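RNA-seq of roots gave 1 table per library, in which the authors deposited FPKM per gene. Per the submitters' processing notes the tools were HISAT2 2.0.4, StringTie 1.3.0 and edgeR, and the build was TAIR10. Per the labels' protocols the libraries were stranded. The deposited files hold no counts, and depth was estimated from the steps between low FPKM values, of which 52.1 to 60.1% lay within 0.02 of a whole fragment. Of 33602 loci, 32835 (97.7%) matched the RefSeq annotation, and the 19484 with mean FPKM of at least 1 over 18 libraries were tested.

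Values of log2(FPKM + 1) were fitted with limma 3.58.1 (trend, R 4.3.3) as means of 6 groups, with no count test. The slope used contrast weights -0.3, -0.1, 0.1 and 0.3 for BPF, BPE, BPA and BPB, and departures from a line the joint quadratic and cubic terms. P-values were adjusted by Benjamini-Hochberg over all tested genes, and over genes and pairs together for the 6 pairs. Intervals are 95%. Named genes were the 10 highest and 10 lowest called slopes with ordered means, the genes with all libraries in order (up to 5 each way), up to 3 called members per list by smallest p, the 6 departures with smallest p with the 4 lacking a called slope, and the 2 highest and 2 lowest differences of neighbouring pairs, of which a part is described. FSD1, FRO4 and the others called in every 3-compound fit, and the copper genes, are named beside them. The members and lists were chosen with earlier results of these data known. In simulated data, 19284 of 19484 genes were unchanged. Slopes of 0.2, 0.4 and 0.8 per carbon were called in 19, 82 and 95% of 26, 22 and 22 changed genes. The simulation had 87 slope calls against 5107 in the real data, so these shares need not hold for the real data.

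Sequences came from RefSeq TAIR10.1. Alternatives were another pseudocount, expression filter, normalization, library set and replicate block, and leaving out each library or compound.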

Additional observations from a re-analysis of the deposited data

How the results depend on the processing

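The 13 genes called over BPF, BPE and BPA became 8 with log2(FPKM + 0.1), 5 with a mean FPKM of at least 5, 1 with the 12 libraries only, 0 with the 9 libraries of the 3 compounds and 1251 without BPA replicate 3 and BPB replicate 3 together. The 9 genes called in every fit of 3 compounds became 4 at a mean FPKM of at least 5, 0 with the 12 libraries only and 176 without that pair of libraries. The slope was called in 2223 genes by a straight line fitted to the 12 libraries and in 13 with BPB left out. With single libraries left out, the slope counts ran from 2366 to 5394, the departures from 612 to 4748, the pair differences from 8259 to 19193, the genes called without BPB from 5 to 42 and those in every fit from 4 to 18. Slopes changed sign in UMAMIT19 (0.18) and SULTR2;1 (0.34) with BPF left out, and in AT5G51190 (-0.17) and DLAH (-0.01) with BPB left out; the cause was not tested.

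Replicate numbers showed no clear pairing of the samples. Deviations of same-numbered libraries correlated between -0.44 and 0.43 over 18 pairs, 6 of them over 0.1. Of 12 libraries, 5 were closest to one of their own number. Whether libraries of a number shared a batch was not tested. With a replicate block the slope was called in 5038 genes, the departure in 3616, the pairs in 16697 and the fits in 10 without BPB and 7 in every fit. FPKM carry no counts, so error from depth at low levels, as for FRO4 and MIR408, could not be given.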

Other observations

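Both gene lists below were chosen after the values had been seen. The lists above were chosen with earlier results of these data known. The counts of all lists are therefore a description. Of 14 circadian clock genes, 4 rose and 1 fell, against 18.6% and 7.61% of all tested genes, with a median slope of 0.088 against 0.049 for all genes. CCA1 rose as described above, and LHY, its partner in the morning loop, had FPKM of 11.9, 13.6 and 19.2 in BPF roots, 13.5, 18.8 and 15 in BPE roots, 36.1, 37.2 and 26.8 in BPA roots and 49.6, 50.8 and 38.8 in BPB roots, against 13.8, 17.7 and 13.7 in control roots. The LHY slope was 0.58 ± 0.06 (adjusted p = 0.000136 in limma), and 0.56 over BPF, BPE and BPA (adjusted p = 0.0552). RVE8, a related activator, rose by 0.52 ± 0.08 (adjusted p = 0.000835), and PRR5, an evening repressor of these genes, had a slope of -0.25 ± 0.06 (adjusted p = 0.00902). The fourth riser was ELF3 (slope 0.17), and TOC1 and GI had slopes of -0.01 and -0.02 that were not called. No label gives the hour of harvest.

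Of 10 genes of ion transport in the xylem and stele, 6 rose and 1 fell, against 18.6% and 7.61% of all tested genes, with a median slope of 0.418 and 0.118 over BPF, BPE and BPA. HKT1, which takes sodium out of the xylem, had FPKM of 1.27, 1.54 and 0.985 in BPF roots, 2.05, 1.38 and 2.18 in BPE roots, 6.53, 4.06 and 1.94 in BPA roots and 6.58, 10 and 5.63 in BPB roots, against 1.7, 2.91 and 2.42 in control roots, and a slope of 0.64 ± 0.11 (adjusted p = 0.00145). PHO1, which loads phosphate, had 73.9, 92.2 and 128.0 in BPF roots, 85.7, 90.3 and 77.6 in BPE roots, 91.2, 137.1 and 102.8 in BPA roots and 256.8, 221.7 and 254.0 in BPB roots and a slope of 0.44 ± 0.07 (adjusted p = 0.000884). The BPB libraries of PHO1 were above all others of the row, while BPA replicate 1 overlapped BPB in HKT1. SULTR2;1, a sulfate transporter, was the gene that fell (-0.76 ± 0.23; adjusted p = 0.029), and it was not called without BPF replicate 2 (adjusted p = 0.108), BPB replicate 1 (0.0833) or BPB replicate 2 (0.115).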
